A study of Homo sapiens with 36 samples.

Results

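The BCL2 protein family and its member MCL1 were examined in WiT49, a cell line from an anaplastic Wilms tumor, a childhood kidney cancer. The 10 genes are BCL2, BCL2L1, BCL2L2, MCL1, BAK1, BOK, BID, BCL2L11, BAD and BMF. They were found in every table by matching gene identifiers to GENCODE release 29. They are 10 of the 58174 genes listed for RNA and 10 of the 43548 listed for ribosome footprints. Cells were given 2 nM actinomycin D (actD) or the solvent dimethyl sulfoxide (DMSO). ActD sits in DNA and can block RNA synthesis, and how far this dose did so was not tested. Exposure was for 6 h, 72 h or 2 weeks. The 2-week schedule had 2 cycles of 7 days, with 3 days on actD or DMSO followed by 4 days off. Each treatment and time had 3 libraries of total RNA and 3 of ribosome footprints, the RNA fragments that translating ribosomes shield from nuclease. All samples come from this 1 cell line, and the labels do not say whether replicates were separate cultures, so p-values measure only the spread between these libraries. For the RNA libraries at 2 weeks, titles and library names give opposite treatments. The groups go here by library name, "named actd" and "named dmso", and differences subtract the latter from the former.

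BCL2 proteins decide whether the outer mitochondrial membrane is opened, the step that releases cytochrome c and starts the caspases. BCL2, BCL2L1 (whose long form is BCL-XL), BCL2L2 (BCL-W) and MCL1 protect cells. BAK1 forms the pore, and BOK is a related pore former. BID, BCL2L11 (BIM), BAD and BMF carry only the BH3 segment and act by binding the others. MCL1 is known for a short-lived messenger and a short-lived protein, the latter removed by the proteasome, so it is often followed when transcription or the proteasome is blocked.

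ActD inserts into DNA preferentially where G is followed by C, and these steps were therefore counted before the members' start sites. RefSeq windows of 250 bases before a start site (GRCh38.p14) were at hand for 8 of the 10 members, 15 windows in all, and MCL1 and BCL2L2 had none. The median over the 15 windows was 23 GC steps and 66.4% G plus C, and over all 35116 windows 20 steps and 58%. Shown are the stretches outside annotated exons for 3 members, 5′ to 3′ on the gene's strand, with each GC step in capitals. BOK (chr2:241558495-241558720, plus strand) is shown for its RNA difference at 6 h, BCL2L1 (chr20:31723990-31724213, minus strand) as the second most abundant member, and BCL2L11 (chr2:111120664-111120913, plus strand) as the member richest in GC steps.
BOK: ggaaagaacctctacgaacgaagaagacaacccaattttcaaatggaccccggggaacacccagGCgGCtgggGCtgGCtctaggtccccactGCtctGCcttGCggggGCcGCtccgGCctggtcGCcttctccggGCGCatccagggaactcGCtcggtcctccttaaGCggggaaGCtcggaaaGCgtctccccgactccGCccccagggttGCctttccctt
BCL2L1: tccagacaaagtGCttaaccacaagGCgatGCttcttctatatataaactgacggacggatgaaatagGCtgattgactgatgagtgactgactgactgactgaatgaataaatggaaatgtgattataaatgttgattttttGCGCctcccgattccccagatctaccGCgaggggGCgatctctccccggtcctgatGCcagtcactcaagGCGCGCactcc
BCL2L11: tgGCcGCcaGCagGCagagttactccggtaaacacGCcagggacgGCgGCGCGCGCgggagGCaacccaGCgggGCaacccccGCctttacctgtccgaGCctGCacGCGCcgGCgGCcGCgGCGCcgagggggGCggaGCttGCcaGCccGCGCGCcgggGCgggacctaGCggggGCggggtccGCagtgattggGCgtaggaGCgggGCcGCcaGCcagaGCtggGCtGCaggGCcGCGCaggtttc
The BCL2L11 stretch held 45 GC steps, more than 97.9% of all windows of this length. The whole BOK window held 23 and the BCL2L1 window 17. TATAAA, read on either strand, occurred at 2 places in this BCL2L1 window, in 0 of the other 14 member windows and in 10.7% of all windows. These letters describe the sequence only and were not tied to any measurement here.

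RNA libraries held 40221994 to 69240041 counts and footprint libraries 152556 to 1281039, of which 23134 to 283435 fell on protein-coding genes. The members together took 15882 to 49055 counts in an RNA library and 3 to 154 in a footprint library. Of the markers of nephron progenitors and Wilms tumor blastema, WT1, LIN28B and MYCN reached 1 CPM in all 18 RNA libraries, whereas SIX2, PAX2, EYA1, SALL1 and CITED1 stayed under 1 CPM in all 18. CPM are depth-scaled counts after edgeR's TMM scaling for library composition. Of 8 markers of other cell types only the epithelial gene EPCAM reached 1 CPM throughout, at 5.98 to 21.7 CPM. The 8 together gave 7.80 to 16.18 CPM in actD and 16.23 to 22.1 CPM in DMSO at 72 h, groups that barely missed each other. EPCAM, the only 1 of the 8 with enough counts to be tested, overlapped there, and 20.9% of all genes did not. The sums overlapped at 6 h (9.81 to 13.1 CPM in actD, 9.44 to 11.4 in DMSO). At 2 weeks they overlapped too (6.70 to 7.66 CPM in named actd, 5.98 to 7.05 in named dmso). The part of these markers in any result was not tested. In such bulk libraries fewer cells of a kind and less RNA per cell cannot be told apart.

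MCL1 was the most abundant member in vehicle-treated cells, and BCL2 the least abundant, when RNA was divided by the merged exon length. At 6 h the MCL1 level was 89.1 ± 2.13 CPM per exon kb and that of BCL2L1 30.7 ± 3.19 (SD, n = 3 each). MCL1 exceeded BCL2L1, the next in order, 2.90-fold at 6 h, 3.57-fold at 72 h and 2.51-fold at 2 weeks, and the libraries of the pair did not overlap in any of the 3 tables. BCL2 stood at 0.501 ± 0.0640, 0.462 ± 0.190 and 0.416 ± 0.0325 CPM per exon kb at the 3 times (SD, n = 3 each). At 6 h the order was MCL1, BCL2L1, BOK, BAD, BAK1, BID, BCL2L2, BCL2L11, BMF and BCL2. Neighbours whose libraries overlapped there were BOK and BAD, BAK1 and BID, BCL2L2 and BCL2L11, and BCL2L11 and BMF. At 72 h the 5 genes from BAD to BOK (BAD, BCL2L2, BID, BAK1, BOK) lay between 7.32 and 5.36 CPM per exon kb, each overlapping the next. BMF was ranked 9 at 6 h and 72 h and 4 at 2 weeks, and BCL2L2 was ranked 7 at 6 h, 4 at 72 h and 8 at 2 weeks.

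**Figure D1:**
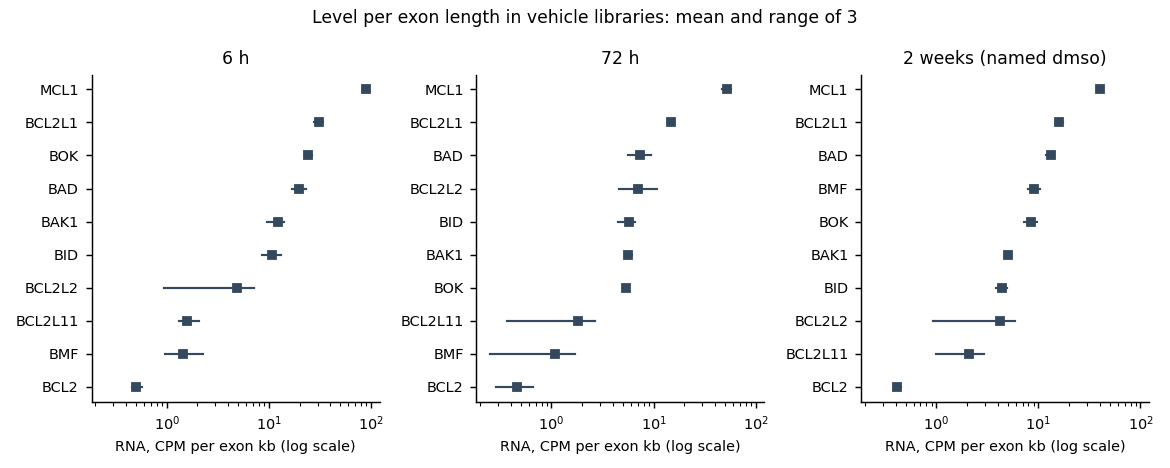
RNA level per exon length (CPM per exon kb, log axis) of the 10 genes in vehicle libraries at 6 h, 72 h and 2 weeks. Squares are means and lines the range of 3 libraries. MCL1 and BCL2L1 lead each panel and BCL2 closes it, and the widest ranges belong to BCL2L2, BCL2L11 and BMF.

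BMF, whose protein is known to bind a dynein light chain, held 5.27 to 12.4 CPM in the 6 RNA libraries at 6 h and 1.15 to 13.7 at 72 h. At 2 weeks all 6 libraries held 43.6 to 56.8 CPM, whatever their treatment name. Relative to MCL1 in the same libraries, its level per exon length was 1.53% at 6 h, 2.76% at 72 h and 21.9% at 2 weeks. Tables of different time points carry their own count scale and were scaled separately. The ratio to MCL1 is free of that scale, but kit and time cannot be told apart, because the labels name more than 1 kit for extraction and library without saying which library had which.

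No member's RNA was called as changed under actD (edgeR quasi-likelihood test, Benjamini-Hochberg adjusted p). At 6 h, 0 of 10 members were called, against 0% of 22669 genes. At 72 h the count was 0 of 10, against 0.00472% of 21195 genes, and at 2 weeks 0 of 10, against 0% of 21137 genes. DESeq2 also called 0 of 10 at each time. It called 204 of the 22669 genes at 6 h, 197 of the 21137 at 2 weeks and more at 72 h. For BCL2L2 at 6 h it gave no p-value, so that gene could not be called there. An unadjusted p under 0.05 was reached by 1 of 10 members at each time, BOK at 6 h, BCL2 at 72 h and BID at 2 weeks, where 8.21%, 13.1% and 8.93% of all genes did so. The median log2 fold change of the 10 was -0.08, -0.06 and 0.03 at the 3 times, beside 0.02, 0.02 and -0.02 over all genes tested. At 6 h, 9 of the 10 estimates were below 0 (8 with DESeq2) where 53.0% of all genes were above it, but for 8 of those 9 the libraries of the groups overlapped. At 72 h 5 were above 0, and at 2 weeks 6. Under library totals the 2-week median of all genes moved by -0.15 and 2 of 10 members stayed above 0.

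**Figure D2:**
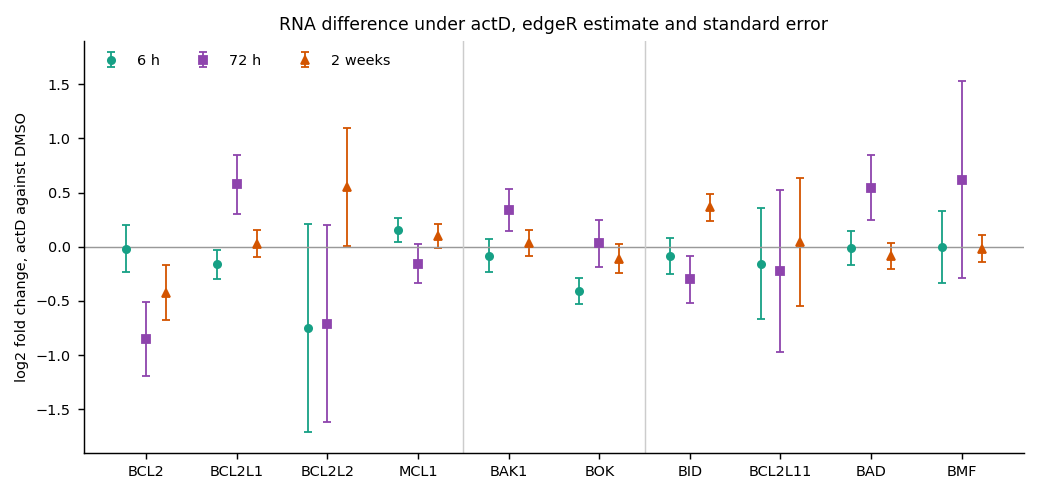
Log2 fold change of RNA, actD against DMSO, for each member at 6 h, 72 h and 2 weeks (named actd against named dmso), with edgeR standard errors. Points are ordered as pro-survival genes, pore formers and BH3-only genes. The estimate farthest below 0 is BCL2 at 72 h at -0.85, and none of the 30 passed the adjusted threshold.

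Among the pro-survival members, MCL1 (chromosome 1, 150574551 to 150579738, minus strand, GRCh38) had libraries close to each other. At 6 h its RNA was 397, 392.3 and 379 CPM in DMSO and 401, 442 and 456 CPM in actD. The groups did not overlap, but the log2 fold change of 0.15 (SE 0.11) was not called (edgeR adjusted p = 0.776). MCL1 was 1 of 2 members without overlap at 6 h, 1 higher and 1 lower, against 7.66% and 8.17% of all genes, or 15.8% in either direction.
At 72 h MCL1 RNA was 252, 206 and 233 CPM in DMSO and 202, 206 and 212 CPM in actD, with overlapping groups and a log2 fold change of -0.16 (SE 0.18; edgeR adjusted p = 0.731). At 2 weeks it was 166, 171 and 187 CPM in named dmso and 189.6, 179.8 and 192 CPM in named actd, again overlapping (0.10, SE 0.11; edgeR adjusted p = 0.806). The sign at 2 weeks turned under library totals in place of composition scaling (-0.05).

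BCL2L1 (chromosome 20, 31664452 to 31723989, minus strand) was higher in actD at 72 h without overlap. Its RNA there was 51.5, 46.1 and 49.1 CPM in DMSO and 58.9, 56.0 and 103.7 CPM in actD, so that 1 actD library stood well above the other 2. The log2 fold change was 0.57 (SE 0.27; edgeR adjusted p = 0.417), and 0.23 without actD replicate 3. At 6 h the estimate was -0.16 (SE 0.14; edgeR adjusted p = 0.814) and at 2 weeks 0.03 (SE 0.12; edgeR adjusted p = 0.961), both with overlapping libraries. Annotated antisense genes (ABALON, AL117381.1) overlap BCL2L1, and the use of strand in counting is not given in the sources used here.

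BCL2 (chromosome 18, 63123346 to 63320128, minus strand), the founding pro-survival gene, had low RNA. At 72 h it was 5.18, 3.34 and 7.78 CPM in DMSO and 3.08, 2.85 and 3.12 CPM in actD. All 3 actD libraries lay below all 3 DMSO libraries, and the DMSO libraries were spread more widely than those of actD. The log2 fold change of -0.85 (SE 0.34) was not called (edgeR unadjusted p = 0.0382, adjusted p = 0.356). Without DMSO replicate 3 the estimate was -0.50. BCL2, BCL2L1 and BAK1 were the 3 members without overlap at 72 h, 2 higher and 1 lower, against 10.5% and 10.3% of all genes, or 20.9% in either direction. BCL2 estimates were -0.02 (SE 0.22) at 6 h and -0.42 (SE 0.25) at 2 weeks, with overlapping libraries and edgeR adjusted p-values of 0.992 and 0.656.

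Of the pore formers, BOK (chromosome 2, 241551424 to 241574138, plus strand) had RNA of 72.3, 61.8 and 61.4 CPM in DMSO and 45.9, 47.4 and 54.1 CPM in actD at 6 h. Every actD library was below every DMSO library. The log2 fold change of -0.41 (SE 0.12) had the smallest unadjusted p of any member in any RNA comparison, 0.00952, and was not called (edgeR adjusted p = 0.476). It ranged from -0.48 to -0.33 when each library was left out in turn. At 72 h BOK stood at 13.7 to 15.2 CPM in DMSO and 13.1 to 18.2 CPM in actD (0.03, SE 0.22; edgeR adjusted p = 0.961), and at 2 weeks the estimate was -0.11 (SE 0.13; edgeR adjusted p = 0.828). BAK1 (chromosome 6, 33572547 to 33580293, minus strand) was higher in actD at 72 h, with 13.6, 12.1 and 11.5 CPM in DMSO and 15.7, 14.5 and 16.8 CPM in actD, without overlap. That difference of 0.34 (SE 0.19) was not called either (edgeR adjusted p = 0.501). At 6 h the 3 actD libraries of BAK1 lay within 25.3 to 25.7 CPM, inside the DMSO range of 21.2 to 31.2.

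Of the BH3-only genes, BID (chromosome 22, 17734138 to 17774770, minus strand), which caspase cleavage activates, differed most clearly at 2 weeks. Its RNA was 17.3, 18.9 and 22.1 CPM in named dmso and 26.8, 23.8 and 24.4 CPM in named actd. All 3 named actd libraries were above all 3 named dmso libraries. The log2 fold change of 0.36 (SE 0.13) was not called (edgeR unadjusted p = 0.0204, adjusted p = 0.512), and by the titles its sign is the opposite. BID and BCL2L2 were the 2 members without overlap at 2 weeks, 2 higher and 0 lower, against 7.86% and 7.83% of all genes, or 15.7% in either direction. At 6 h and 72 h the BID estimates were -0.09 (SE 0.17; edgeR adjusted p = 0.939) and -0.30 (SE 0.21; edgeR adjusted p = 0.579), with overlapping libraries.
BAD (chromosome 11, 64269830 to 64284704, minus strand), which phosphorylation holds in the cytosol, had 11.6, 16.2 and 9.67 CPM in DMSO and 19.7, 22.6 and 12.5 CPM in actD at 72 h. These overlap through actD replicate 3, and the difference of 0.55 (SE 0.30) was not called (edgeR adjusted p = 0.487). At 6 h and 2 weeks the BAD estimates were -0.01 (SE 0.16) and -0.09 (SE 0.12). BAD lies almost wholly across GPR137 on the opposite strand.

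**Figure D3:**
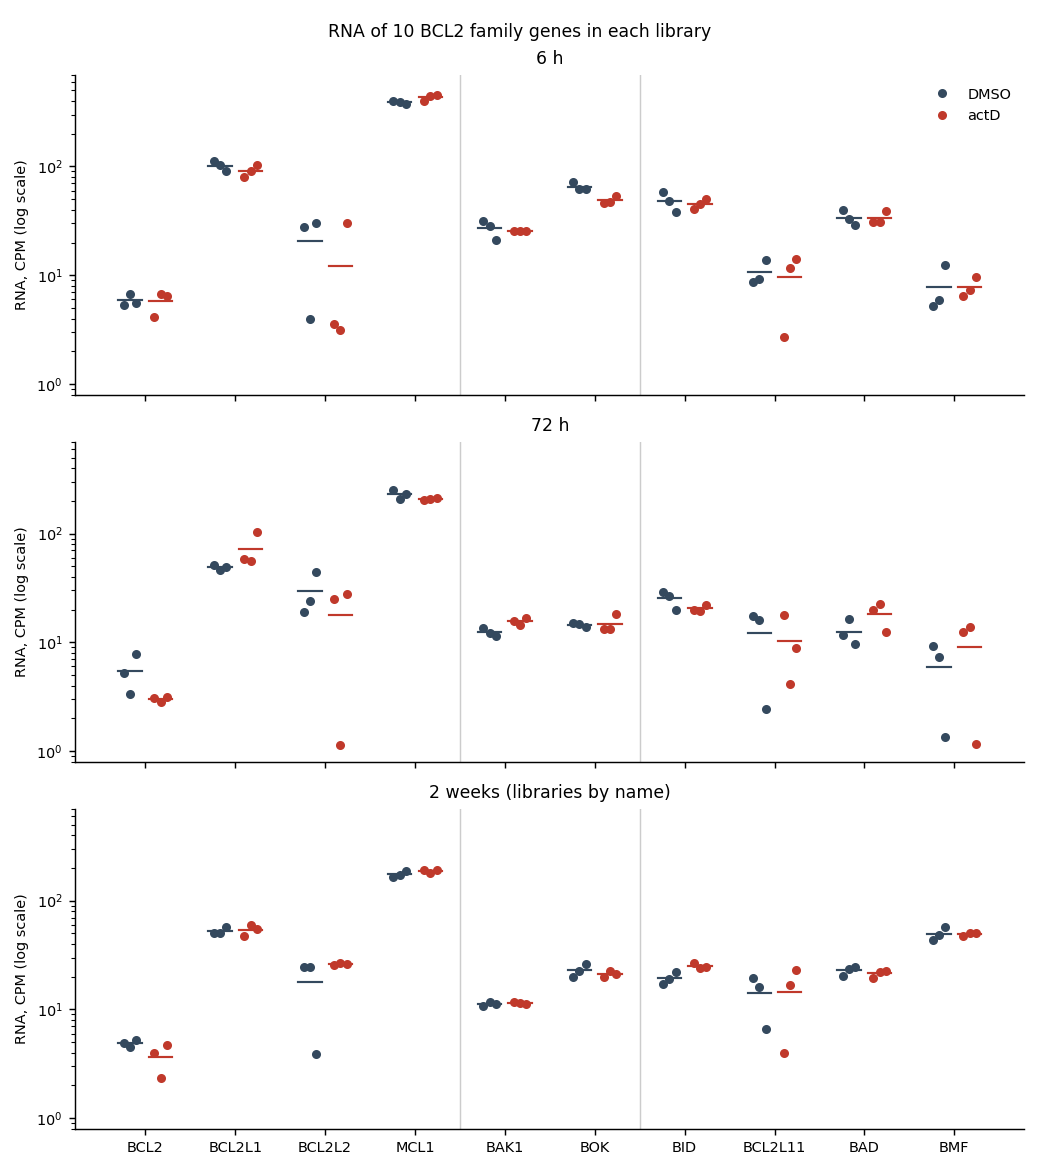
RNA of each member in each library (CPM, log axis) at 6 h, 72 h and 2 weeks, DMSO in dark blue and actD in red, with a bar at each group mean. MCL1 points lie close together in every panel, whereas 1 or 2 libraries of BCL2L2, BCL2L11 and BMF lie far below the rest of several groups.

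BCL2L2, BCL2L11 and BMF had 1 or 2 libraries far from the others in several groups. They are singled out after their values were seen. Of the 10 members, 2 at 6 h, 3 at 72 h and 2 at 2 weeks had a highest library over 3-fold above the lowest in some group, and all of these were among the 3. Of protein-coding genes of at least 5 CPM, 2.15%, 9.61% and 2.23% had such a spread. Low libraries occurred in both treatments.
BCL2L2 (chromosome 14, 23298790 to 23311759, plus strand) lay in a high and a low range. At 6 h it held 1797, 250 and 1925 counts in DMSO and 220, 198 and 1764 in actD. At 72 h the counts were 715, 1094 and 3089 in DMSO and 1267, 61 and 1551 in actD, and at 2 weeks 1411, 1312 and 200 in named dmso and 1365, 1517 and 1162 in named actd. In 5 of the 18 libraries BCL2L2 was under 4 CPM and in the other 13 it was above 19. The estimates were -0.75 (SE 0.96), -0.71 (SE 0.90) and 0.55 (SE 0.55), with edgeR adjusted p-values of 0.895, 0.762 and 0.785. Without actD replicate 3 at 6 h the estimate was -2.62, and without named dmso replicate 3 at 2 weeks it was 0.08. A read-through gene, BCL2L2-PABPN1, shares 4925 bases with BCL2L2 on the same strand, so counts could be divided between them. The 6 h libraries gave it between 33 and 61 counts. Those of 72 h ranged from 26 to 653, the highest in DMSO replicate 3, and those of 2 weeks from 34 to 396, the highest in named dmso replicate 2. Its part in the low BCL2L2 libraries was not tested. With both summed, an alternative chosen after seeing the data, the estimate at 6 h was -0.69 (SE 0.89).
BCL2L11 (chromosome 2, 111119378 to 111168447, plus strand) lies wholly across MIR4435-2HG on the opposite strand. It held 566, 592 and 891 counts in DMSO and 167, 740 and 835 in actD at 6 h, and 658, 732 and 169 against 916, 222 and 494 at 72 h. At 2 weeks the counts were 1122, 845 and 338 in named dmso and 214, 955 and 1003 in named actd. At each time at least 1 low library lay in actD, and the estimates were -0.15 (SE 0.51), -0.22 (SE 0.75) and 0.04 (SE 0.59). Their edgeR adjusted p-values were 0.971, 0.917 and 0.986, and the sign turned in 2, 3 and 3 of the 6 fits that left out 1 library.
BMF (chromosome 15, 40087890 to 40108892, minus strand) was lowest in replicate 3 of both groups at 72 h, with 344, 330 and 93 counts in DMSO and 633, 743 and 64 in actD. The estimate there was 0.62 (SE 0.91; edgeR adjusted p = 0.797). At 2 weeks, where all BMF libraries were close, it was -0.02 (SE 0.12; edgeR adjusted p = 0.977).

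Whether the response of RNA differed between 72 h and 6 h was tested directly as an interaction. 0 of 10 members were called, against 0.0165% of 24251 genes, by edgeR. DESeq2 called 0 of 10 as well, and 158 of all genes. An unadjusted p under 0.05 was found for 1 of 10 members, against 8.02% of all genes. That member was BCL2L1, whose effect was higher by 0.72 at 72 h (SE 0.33; edgeR unadjusted p = 0.0487, adjusted p = 0.6186). Without actD replicate 3 of the 72 h libraries the BCL2L1 difference was 0.41. For MCL1 the difference was -0.33 (SE 0.21; edgeR adjusted p = 0.716) and for BOK 0.42 (SE 0.25; edgeR adjusted p = 0.701).

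In ribosome footprints MCL1 was the member that the libraries could measure. It was the 1 member of 10 to pass the filter on low counts, in all 3 tables. At 6 h MCL1 held 57, 52 and 3 footprints in DMSO and 18, 19 and 52 in actD. At 72 h the counts were 42, 46 and 7 in DMSO and 84, 35 and 128 in actD, and at 2 weeks 10, 41 and 23 in DMSO and 30, 32 and 36 in actD. The 7 at 72 h came from the library with the fewest protein-coding counts of that table (26831), whereas the 3 at 6 h came from one with 23908, close to the 23134 of actD replicate 2, which held 19. After scaling the groups overlapped at all 3 times, where 9.41%, 35.7% and 14.9% of the genes tested did not. In CPM, DMSO and actD stood at 44.5 ± 32.1 and 68.1 ± 42.7 at 6 h, 112 ± 36.7 and 124 ± 28.6 at 72 h, and 29.03 ± 11.8 and 41.0 ± 9.97 at 2 weeks (SD, n = 3 each). The log2 fold changes were 0.59 (SE 0.79), 0.13 (SE 0.38) and 0.48 (SE 0.40), with edgeR adjusted p-values of 0.889, 0.848 and 0.700. MCL1 was not called by edgeR or DESeq2 at any time, and 0%, 3.79% and 0% of the 1212, 2426 and 1598 genes tested were called by edgeR. Its unadjusted p stayed above 0.05 in each, where 3.14%, 27.3% and 8.57% of genes were under it. At 6 h the sign rested on scaling, with -0.08 under library totals, which moved the median of all genes by -0.72. Leaving out actD replicate 3 at 6 h gave -0.038, and leaving out DMSO replicate 1 at 72 h gave -0.029.

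Translational efficiency, the footprint change of MCL1 relative to its RNA change, was tested as an interaction over the 12 libraries of a time. The estimates were 0.37 (SE 0.65) at 6 h, 0.14 (SE 0.41) at 72 h and 0.29 (SE 0.35) at 2 weeks. None was called (edgeR adjusted p = 0.964, 0.907 and 0.949), where 0%, 0.433% and 0% of the 951, 2311 and 1441 genes tested were. No unadjusted p of MCL1 was under 0.05, where 5.26%, 14.9% and 5.14% of genes were. At 6 h the estimate was -0.35 under library totals. It was -0.073 without footprint DMSO replicate 3 at 6 h, and -0.042 without footprint DMSO replicate 1 at 72 h. The 2-week estimate takes the RNA libraries by name. Its alternatives, grouping by title among them, ranged from 0.23 to 0.58. The footprint effect on MCL1 at 72 h differed from that at 6 h by -0.29 (SE 0.91; edgeR adjusted p = 0.979), and 0% of 3012 genes were called there, with 6.54% at an unadjusted p under 0.05.

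**Figure D4:**
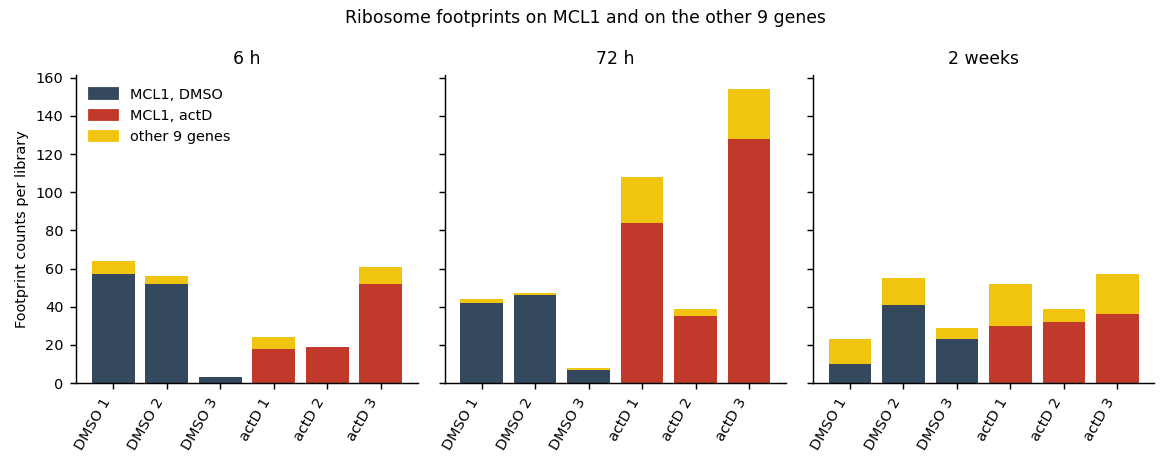
Footprint counts per library at 6 h, 72 h and 2 weeks, not scaled for depth. Bars stack MCL1 (dark blue in DMSO, red in actD) and the sum of the other 9 genes (yellow). MCL1 made up most of the family's counts in 17 of 18 libraries, DMSO replicate 1 at 2 weeks being the exception.

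MCL1 took a larger share of the family's footprints than of its RNA, with footprints of antisense genes left out. Its share of the members' RNA counts in a library was between 52.4% and 62.5% at 6 h, between 49.7% and 59.4% at 72 h, and between 43.3% and 48.0% at 2 weeks. For footprints the 6 h libraries gave 75% to 100%, those of 72 h 77.8% to 97.9%, and those of 2 weeks 43.5% to 82.1%. With antisense genes left out, every footprint library at 6 h and 72 h lay above every RNA library. At 2 weeks DMSO replicate 1 was the exception, with 10 of 23 counts (43.5%, exact 95% binomial interval 23.2% to 65.5%). This interval holds counting error alone, because PCR copies are not separate molecules. At 6 h ABALON held 48 and 51 footprints in DMSO replicates 1 and 2, beside 57 and 52 of MCL1. With ABALON counted to the family in both assays, the separation at 6 h would be lost. At 2 weeks ABALON held 13 and 25 footprints in actD replicates 1 and 3, beside 30 and 36 of MCL1. Counted in, these libraries would no longer lie above every RNA library of that time either. Within RNA at 6 h, the MCL1 share was 52.4%, 56.7% and 55.6% in DMSO and 62.5%, 62.2% and 57.9% in actD, without overlap. The share is built from the same counts as the values of MCL1 and BOK, which did not overlap there either, and was not tested. At 72 h it was 59.4%, 55.2% and 59.3% in DMSO and 52.1%, 58.3% and 49.7% in actD, and the groups overlapped, as they did at 2 weeks.

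Over all 18 footprint libraries the members held 882 counts, of which MCL1 took 715, or 81.1%. The pooled counts, not scaled for depth, were 62 for BCL2L11, 29 for BCL2L1, 28 for BCL2L2, 26 for BMF, 7 each for BCL2 and BID, 6 for BOK and 2 for BAD. At 72 h BCL2L1 and BCL2L2, with 16 each, exceeded BCL2L11 with 13. BAK1 had 0 in all 18 libraries, which allows up to 3 counts (counting error only). Divided by coding length, BCL2L1 footprints were 6.16% of the MCL1 value, whereas its RNA per exon length was 30.95% to 38.9% of MCL1 over the 3 times. ABALON, annotated antisense to BCL2L1 over 1903 bases, held 310 footprints (128 at 6 h, 100 at 72 h and 82 at 2 weeks), and with use of strand not given these cannot be told apart from BCL2L1 footprints. Counted to BCL2L1, they would bring it to 71.97% of the MCL1 value. BAD had 18.01% to 31.3% of the MCL1 RNA but 0.370% of its footprints, and BAK1 had 12.4% to 12.7% of the RNA and no footprint. BOK and BID had 10.9% to 22.4% and 10.3% to 12.1% of the MCL1 RNA and 1.40% and 1.199% of its footprints. BCL2L11 had 1.61% to 5.18% of the RNA and 9.41% of the footprints, with an exact 95% Poisson interval of 7.21% to 12.06%. Such intervals hold counting error alone, take the MCL1 value as fixed and leave out the spread between libraries. For BCL2 the interval of 0.559% to 2.87% covered its RNA values of 0.529% to 0.878%. Other overlapping genes on the opposite strand held footprints too, MIR4435-2HG (BCL2L11) 62, HOMEZ (BCL2L2) 45 and GPR137 (BAD) 20. The 62 BCL2L11 counts came from 7 of 18 libraries, 40 of them at 2 weeks and up to 17 in 1 library, so the interval is too narrow. The position of reads within a gene is not in the tables. RNA and footprint libraries differ in kit and read length, and the part of this in the ratios was not tested.

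**Figure D5:**
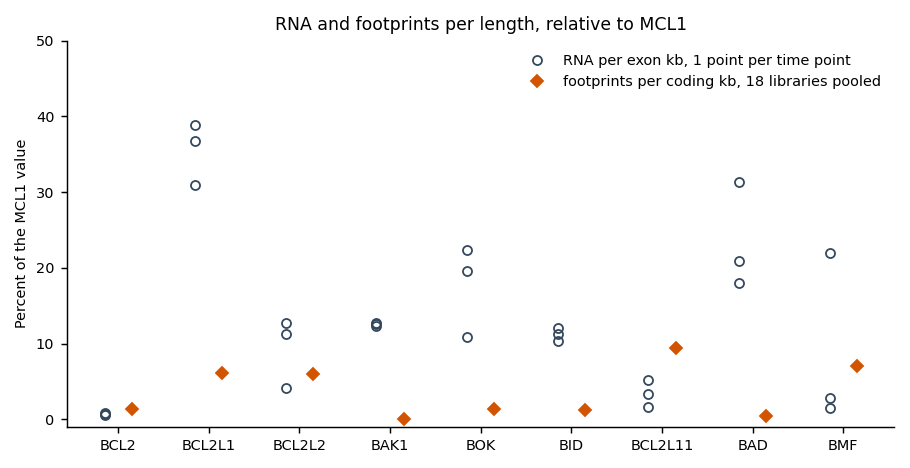
RNA per exon kb (open circles, mean of 6 libraries at each of 3 time points) and footprints per coding kb (diamonds, 18 libraries pooled), as percent of the MCL1 value. Diamonds lie below all circles for BAK1, BOK, BID, BAD and BCL2L1, the last without the 310 footprints of its antisense gene ABALON. The BCL2L11 diamond lies above its circles and rests on counts from 7 of the 18 libraries. The BCL2 diamond rests on 7 counts, whose interval covers its circles.

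Of the 10 members, BCL2L2 alone had footprints that did not overlap between treatments at 72 h. Of the genes tested there 35.7% did not overlap and 19.5% were higher in actD. MCL1 alone of the members was among those genes. The others had too few counts, so 1 of 10 cannot be compared with these shares. BCL2L2 held 5, 3 and 8 counts in actD and 0, 0 and 0 in DMSO, and did not pass the filter. The actD levels of 7.47 to 9.52 CPM were below what 3 counts make in 2 of the 3 DMSO libraries (6.79, 10.1 and 37.3 CPM), so no fold is given. With the looser filter it was tested and not called (edgeR adjusted p = 0.156). At 6 h it had 0 footprints in all 6 libraries, and at 2 weeks 1 to 4 in each. BCL2L1 footprints at 72 h were 14 in actD replicate 3, 2 in DMSO replicate 1 and 0 in the other 4.

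The wider apoptosis pathway was followed through 4 lists chosen with earlier results of these data known. In RNA, 0 of 11 tested other BCL2 family genes, 0 of 18 caspase and apoptosome genes, 0 of 9 genes of MCL1 turnover and 0 of 12 binding partners were called at each time. PMAIP1 (NOXA), the BH3-only gene whose protein pairs with MCL1, held 527, 463 and 1252 counts in DMSO and 326, 348 and 319 in actD at 72 h. Its log2 fold change of -1.19 (SE 0.26) was not called (edgeR unadjusted p = 0.00209, adjusted p = 0.236), though all actD libraries were lower. HRK, another BH3-only gene, had non-overlapping lower values at 6 h (-0.99, SE 0.30; edgeR adjusted p = 0.494) and at 72 h (-1.29, SE 0.50; edgeR adjusted p = 0.344), from at most 51 counts a library. BCL2L14 was higher at 72 h, also from few counts (4 to 20), by 1.22 (SE 0.42; edgeR adjusted p = 0.316). The effector BAX gave -0.04, -0.07 and 0.24 at the 3 times, with overlapping libraries.
At 2 weeks the executioner caspase CASP6 gave -0.34 (SE 0.12) and the nuclease gene DFFB -0.41 (SE 0.25), with edgeR adjusted p-values of 0.512 and 0.659. Neither was called, though their groups did not overlap. USP9X, whose enzyme removes ubiquitin from MCL1, gave -0.25 at 6 h (SE 0.14; edgeR adjusted p = 0.695) without overlap. Of the 9 turnover genes 8 were below 0 there (7 of 9 under library totals), where 53.0% of all genes were above it. Their median was -0.22 beside 0.02 for all genes. HUWE1, a ubiquitin ligase for MCL1, gave -0.44 in footprints at 6 h (SE 0.49; edgeR adjusted p = 0.889).

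In footprints at 72 h, 1 list gene was called. YWHAZ, an adaptor that can hold phosphorylated BAD, held 17, 15 and 2 counts in DMSO and 86, 52 and 150 in actD, and rose in actD with a log2 fold change of 1.89 (SE 0.38; edgeR adjusted p = 0.0473). Without actD replicate 3 the call held (edgeR adjusted p = 0.0409). Leaving out any other single library ended it, with edgeR adjusted p-values from 0.0538 (DMSO replicate 3) to 0.232 (DMSO replicate 1). Of the 9 binding partners tested, 9 had estimates above 0, where 52.8% of all genes did. Without overlap and higher were 6, against 19.5% of all genes, and the list's median was 0.72 beside 0.07. The filter on low counts can be passed through the libraries of 1 group alone. Genes low in DMSO can thus enter by being high in actD, so these counts of genes are description only. DYNLL1, a dynein light chain listed among the binding partners, gave 1.88 (SE 0.54; edgeR adjusted p = 0.0838), with 7, 8 and 5 counts in DMSO and 62, 28 and 123 in actD. In RNA, 10 of 12 of the binding partners were below 0 at 72 h (9 of 12 under library totals), where 51.4% of all genes were above it. Their median there was -0.21, beside 0.02 for all genes. The direction was not the same at other times. In RNA 9 of 12 were above 0 at 6 h (53.0% of all genes) and 10 of 12 at 2 weeks (46.8%), or 7 of 12 there under library totals. In footprints 0 of 5 were above 0 at 6 h (56.85% of all genes) and 4 of 5 at 2 weeks (51.3%). YWHAB was higher in RNA at 6 h (0.70, SE 0.26; edgeR adjusted p = 0.570), and YWHAE and DYNLL2 at 2 weeks (0.33, SE 0.12, and 0.32, SE 0.13; edgeR adjusted p = 0.512 and 0.541), without overlap and without a call.

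Over the 18 RNA libraries, the genes whose pattern was most like that of MCL1 were RCBTB1, ZSWIM1 and PIM2, among 19404 compared. Likeness was the root-mean-square difference in log2 CPM, with each table centred on its own mean, and was 0.0611, 0.0617 and 0.0660, where MCL1 itself varied by 0.0978. For BCL2L1 they were BCDIN3D, LENG1 and NFYC, at 0.111, 0.112 and 0.113 against its own 0.251. Libraries share treatment and composition within a table, so these are descriptions only.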

How the data were processed

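The authors deposited a table for every assay and time, holding a column for each library. The deposited values were read as estimated counts (expected counts) per gene and were whole numbers already. HISAT2, StringTie and hg38 are named, without versions or roles, per the submitters' processing notes, and the annotation and use of strand are not given in the sources used here. Small values in the RNA tables at 6 h and 2 weeks pile up at 3, 6 and 9 counts, and the reason was not tested.

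Identifiers were matched to GENCODE release 29 without their version (99.4% in both assays). Each table was tested alone with edgeR 4.0.16 (R 4.3.3), two-sided, quasi-likelihood, TMM scaling, filterByExpr and Benjamini-Hochberg adjustment, and genes were called at an adjusted p under 0.05. Interactions tested translational efficiency and time. CPM use the same scaling. DESeq2 1.42.0, other scalings, other filters, a replicate block and leaving out each library were alternatives. The tests were checked on simulated data. Replicates were checked for duplicates, and their chi-square over degrees of freedom was at least 30.6 in RNA and 11.4 in footprints. The members and lists were chosen with earlier results of these data known. Named are the 10 members, list genes that were called and, per comparison and direction, the 2 non-overlapping list genes with the largest log2 fold change. BAX is named outside this rule. The 3 genes most like MCL1 and BCL2L1 are also named. Some listed genes are not reported here.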

Additional observations from a re-analysis of the deposited data

How the results depend on the processing

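No member was called in any of the 184 fits over the 11 comparisons, and of 722 member estimates under alternatives 74 had the opposite sign, 48 of them among the 366 with 1 library left out. Counts of all genes called moved more. DESeq2 called 204, 605 and 197 genes in RNA at 6 h, 72 h and 2 weeks, 12 in footprints at 6 h, 6, 107 and 3 in translational efficiency, and 158 and 6 for the difference between 72 h and 6 h in RNA and footprints. A single fit over all times called 1 gene in RNA at 6 h and 1212 at 72 h. Library totals called 6 in RNA at 2 weeks and 7 in footprints at 72 h. In footprints at 72 h the looser filter (1 count in 3 libraries) called 2 and protein-coding genes alone 182. TMM over all 12 libraries called 16 in efficiency at 72 h, and the titles 27 at 2 weeks.

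Replicate numbers were not taken to pair libraries. Between actD and DMSO no table had a correlation of deviations over 0.1 for every pair (0.085, 0.23 and 0.15 in RNA at 72 h). Between RNA and footprints at 72 h it was 0.17, 0.20 and 0.43 in actD, all over 0.1, but 0.16, 0.088 and 0.19 in DMSO. All 6 libraries correlated best with their own number in RNA at 72 h, and 0 of 6 in RNA at 6 h. With a replicate block 0 genes were called in RNA, footprints and efficiency at 72 h and for the RNA difference between 72 h and 6 h. Estimates that turned under the block were BMF at 6 h (0.0849), BCL2L11 at 2 weeks (-0.11), and BCL2L2 (-0.32) and BCL2L11 (0.36) for that difference. The YWHAZ call was lost under the block (1.88; edgeR adjusted p = 0.142), library totals (1.89; 0.298) and the looser filter (2.03; 0.144).

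Other signs turned for BMF in RNA at 6 h (8.31e-05 with DESeq2, 0.00366 in the single fit) and at 2 weeks (0.00582 in the single fit). Library totals gave -0.12, -0.0513, -0.11 and -0.16 for BCL2L1, MCL1, BAK1 and BCL2L11 in RNA at 2 weeks. For MCL1 they gave -0.0814 in footprints and -0.35 in efficiency at 6 h, and 0.12 for the footprint difference between 72 h and 6 h, which was 0.0974 with the looser filter. For BCL2L11 the RNA difference was 0.00648 over protein-coding genes. By the titles the RNA estimates at 2 weeks were 0.42 for BCL2, -0.0267 for BCL2L1, -0.55 for BCL2L2, -0.0995 for MCL1, -0.0356 for BAK1, -0.36 for BID, -0.0424 for BCL2L11, 0.0887 for BAD, 0.0164 for BMF and 0.11 for BOK. The cause was not tested in any of these.

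Leaving out 1 library gave 0 to 6, 0 to 3 and 2 to 10 genes in RNA, 0 to 282 in footprints at 72 h, 0 to 5, 7 to 41 and 0 to 3 in efficiency, and 1 to 38 for the RNA difference. Estimates that changed sign ranged in RNA at 6 h BCL2 -0.14 to 0.17, BAK1 -0.23 to 0.037, BID -0.23 to 0.074, BCL2L11 -0.56 to 0.29, BAD -0.13 to 0.12, BMF -0.22 to 0.49; in RNA at 72 h BCL2L11 -0.90 to 0.16, BOK -0.14 to 0.11; in RNA at 2 weeks BCL2L1 -0.050 to 0.13, BCL2L11 -0.43 to 0.51, BMF -0.10 to 0.096, BOK -0.20 to 0.00092; in footprints at 6 h MCL1 -0.038 to 0.92; in footprints at 72 h MCL1 -0.029 to 0.40; in translational efficiency at 6 h MCL1 -0.073 to 0.71; in translational efficiency at 72 h MCL1 -0.042 to 0.43; in RNA effect at 72 h against 6 h BCL2L2 -0.46 to 1.91, BCL2L11 -0.76 to 0.33; in footprint effect at 72 h against 6 h MCL1 -0.62 to 0.31. Footprint depth limits 9 of the 10 members to description.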
